A study of Mus musculus with 20 samples.

Results

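TH17 cells sorted from mouse tissue were compared with TH17 cells differentiated in culture, in 4 RNA-seq libraries against 8, which are 12 of the 20 samples of the series. The other 8 samples, of ATAC-seq, were not analysed here. Genes belonged to the comparison where every tissue library lay on one side of every culture library in CPM, the reads counted for a gene per 1000000 reads counted for any gene. This held for 4002 of 24862 gene rows, and for 3748 (29.3%) of the 12788 genes with enough reads to be tested. Because the values chose these genes, the separation of the libraries is a description and carries no test. Just inside the rule, Cebpz had 49.10 CPM in its lowest tissue library and 49.07 CPM in its highest culture. Just outside it, Akirin1 had 200.24 CPM in its lowest tissue library and 200.26 CPM in its highest culture.

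All samples carried the C57BL/6 strain label. The tissue libraries came from GFP-positive TH17 cells that had infiltrated the central nervous system (CNS, 2 libraries) or that lay in the ileum (2 libraries), with 50000 sorted cells named for such a sample. Cultured cells began as naive CD4+ T cells from lymph node or spleen, on plate-bound anti-CD3ε at 5 µg/ml with anti-CD28 at 2 µg/ml and antibodies that block IL-4 and IFN-γ. TH17(β) cultures received TGF-β1 at 2 ng/ml and IL-6 at 20 ng/ml, and were labelled Ad-control (2 libraries) or Ad-c-Rel, for overexpression of the NF-κB subunit c-Rel (2 libraries). TH17(23) cultures, called pathogenic in the labels, received IL-6, IL-1β and IL-23 at 20 ng/ml each, and came from control mice (2 libraries) or from mice lacking the microRNA miR-21 (miR-21-/-, 2 libraries). The gene that drives GFP, the way the CNS cells were elicited, the days in culture and the number of mice behind a library are not given in these sources. TH17 cells are CD4+ T helper cells that make IL-17. They live at the gut lining, where they help to hold bacteria in check, and they enter the brain and spinal cord in autoimmune inflammation. T cells that settle in a tissue are known to keep CD69 on the surface, which holds them there by removing the exit receptor S1PR1, whereas T cells growing in culture with strong receptor stimulation and IL-2 take up much glucose and ferment it to lactate.

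Between 15421743 and 36711252 reads per library were counted in genes, and 10771 to 16684 genes had at least 1 read, the fewest in the second ileum and second CNS libraries (10771 and 11545). Replicates correlated on the log2 CPM scale, across genes, at 0.902 (CNS) and 0.880 (ileum), and at 0.985 to 0.993 in the culture groups. The protocols name a low-input kit that copies poly(A) RNA (SMART-Seq v4) for the sorted cells and a stranded total RNA kit (TruSeq) for the miR-21 cultures. The kit of the TH17(β) libraries is not given in these sources. The tissue of origin, the isolation of the cells by sorting, and the kit cannot be told apart here. For some of the gene lists, counts of called members are also given for each culture set, and the other counts are pooled over both sets. The labels held for the altered genes: Mir21a had 0 CPM in both miR-21-/- libraries and 0.687 and 0.545 CPM in their controls, and Rel had 57.5 and 61.9 CPM in Ad-c-Rel against 10.8 and 7.02 CPM in Ad-control. Nothing in the labels says that replicates were separate animals. The p-values therefore measure the spread between these libraries. They treat libraries of the same group as independent, which makes them too small as a statement on tissue and culture in general.

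The sorted libraries held T cell transcripts at levels between those of the culture sets, and also transcripts of other cells. The summed level of 12 T cell identity genes was 5561 to 6778 CPM in tissue, 7406 to 7921 CPM in TH17(β) and 3556 to 4232 CPM in TH17(23) cultures. Among them, Cd4 had 779 and 591 CPM from CNS and 715 and 638 CPM from ileum, with 736 to 947 CPM in culture (median 813), and its groups overlapped. Markers of myeloid cells and microglia, 22 genes, together reached 40249 and 44152 CPM in the CNS samples, 5616 and 5979 CPM in the ileum samples and only 151 to 314 CPM in the cultures. Lyz2, the lysozyme of macrophages and neutrophils, had 5672 and 5639.9 CPM from CNS and 582 and 708 CPM from ileum and at most 0.183 CPM in the cultures. Genes of MHC class II, which antigen-presenting cells use to show peptides to CD4+ T cells, summed to 9806 to 12212 CPM in tissue and 208 to 1011 CPM in the cultures. Neutrophil markers were high in CNS alone (434 and 388 CPM, against 10.8 and 0.469 CPM in ileum), and B and plasma cell markers were highest in ileum (4531 and 4381 CPM, against 355 and 359 CPM in CNS). Epithelial markers summed to 20.0 and 18.6 CPM in CNS, 14.3 and 0 CPM in ileum and 37.0 to 68.4 CPM in the cultures. The 0 of the second ileum library allows up to 0.176 CPM for a gene. In bulk RNA, more cells of a type and more RNA per cell cannot be told apart. The part of other cells in each result was not tested.

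**Figure D1:**
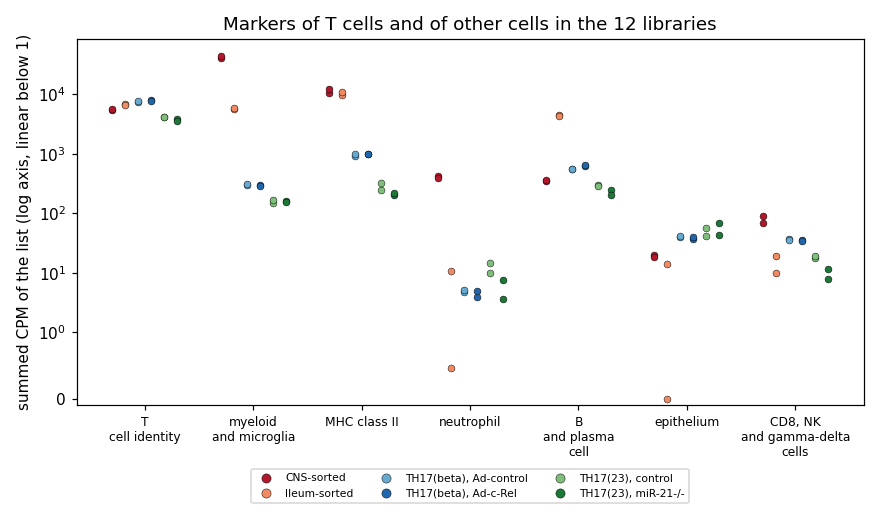
Summed CPM of marker lists (y axis, log scale that is linear below 1 CPM) in each of the 12 libraries, 1 point per library, coloured by group. T cell identity genes in tissue lie between the TH17(β) and the TH17(23) cultures, while myeloid markers reach 40249 and 44152 CPM in CNS, 5616 and 5979 CPM in ileum and 151 to 314 CPM in the cultures.

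Across all genes tested, edgeR's quasi-likelihood test called 4762 genes (37.2%) at a Benjamini-Hochberg adjusted p under 0.05. Of these, 2227 were higher in tissue (17.4% of genes tested) and 2535 lower (19.8%). Without overlap between the sources, 1331 genes were higher (10.4%) and 2417 lower (18.9%). Scaling each library to the 12 T cell identity genes in place of all genes moved the median of all genes by -0.37 on the log2 scale and the called genes to 1585 higher (12.4%) and 2952 lower (23.1%). Protein-coding genes that were called, did not overlap, differed at least 4-fold and averaged at least 5 CPM, here termed large differences, numbered 598 higher (4.68%) and 664 lower (5.19%). In what follows a fold change is given as log2 of tissue over culture with its standard error over the 12 libraries. The median over all genes tested was -0.22. Against the TH17(β) cultures alone 22.1% of genes were called higher and 16.9% lower, and against the TH17(23) cultures alone 23.3% and 22.8%. With only the CNS libraries on the tissue side these shares were 16.7% and 18.6%, and with only the ileum libraries 17.1% and 21.8%.

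The 6 marker genes of the comparison fell into 3 patterns. Where every library is listed, the Ad-control or control cultures come before the altered ones. Cd69, the retention receptor, had 824 and 793 CPM from CNS and 1172 and 1113 CPM from ileum, 70.6, 74.6, 141 and 148 CPM in TH17(β) and 61.1, 45.7, 63.4 and 40.2 CPM in TH17(23) cultures. Every tissue library lay at least 5.36-fold above every culture, and the log2 fold change was 3.79 ± 0.36 (adjusted p = 4.77e-06). Rgs1, which dampens chemokine receptor signalling, had 876 and 784 CPM from CNS and 6123 and 6384 CPM from ileum, 450.2, 463, 489.7 and 494 CPM in TH17(β) and 313, 208, 208 and 122 CPM in TH17(23) cultures. Its tissue libraries were all above the cultures, by 1.59-fold at the nearest, with the ileum far above CNS, and the log2 fold change was 3.63 ± 0.59 (adjusted p = 4.04e-04). Il2ra encodes the high-affinity chain of the IL-2 receptor, and Slc2a3 the glucose transporter GLUT3. Il2ra had 101 and 73.2 CPM from CNS and 89.8 and 110.3 CPM from ileum, 1649, 1801, 2049.6 and 2106 CPM in TH17(β) and 3047, 2423, 1508 and 839.6 CPM in TH17(23) cultures. Slc2a3 had 121 and 103 CPM from CNS and 46.8 and 46.8 CPM from ileum, 2164, 2456, 2827 and 3166 CPM in TH17(β) and 1527, 2328, 862 and 1290.2 CPM in TH17(23) cultures. Both were lower in every tissue library than in any culture, by 7.61-fold and 7.14-fold at the nearest, with log2 fold changes of -4.18 ± 0.38 (adjusted p = 3.37e-06) and -4.58 ± 0.47 (adjusted p = 1.04e-05). Aldoa, the glycolytic enzyme aldolase A, had 1694 and 1759 CPM from CNS and 919.7 and 1009 CPM from ileum, 10007, 9873, 9108 and 8966 CPM in TH17(β) and 3005, 3519, 3618 and 4673 CPM in TH17(23) cultures. It too was lower in tissue without overlap, by 1.71-fold at the nearest, and its log2 fold change was -2.15 ± 0.45 (adjusted p = 0.0024). Mki67, the proliferation marker Ki-67, had 42.6 and 24.9 CPM from CNS and 60.0 and 41.6 CPM from ileum, 40.6, 36.9, 17.8 and 22.1 CPM in TH17(β) and 265, 552, 391 and 658 CPM in TH17(23) cultures. Its tissue and TH17(β) libraries overlapped, only the TH17(23) cultures stood above, and the pooled log2 fold change of -2.41 ± 1.05 (adjusted p = 0.087) did not pass and turned to 0.82 against the TH17(β) cultures alone.

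**Figure D2:**
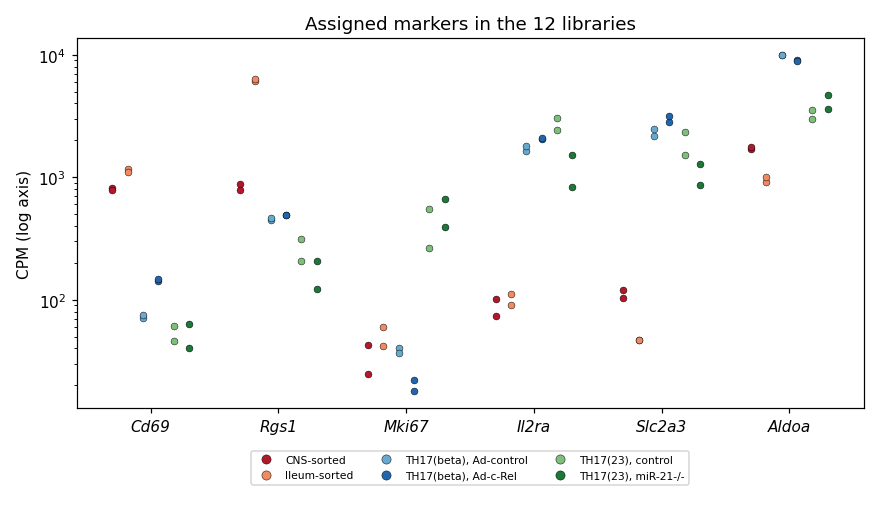
CPM on a log axis for the 6 marker genes in each of the 12 libraries, 1 point per library, coloured by group. Cd69 and Rgs1 lie higher, and Il2ra, Slc2a3 and Aldoa lower, in all 4 tissue libraries than in all 8 cultures, whereas Mki67 is high in the TH17(23) cultures alone.

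The gene lists divided in the same way. Beside the shares over all genes given above, 20 of 22 immediate early genes, 15 of 18 tissue residency genes and 13 of 17 effector cytokine and cytotoxic genes were called higher in tissue. In the other direction, 16 of 20 hypoxia response genes, 18 of 24 glycolysis genes and 14 of 21 sterol and fatty acid synthesis genes were called lower. The libraries of each group were also summed to 1, which leaves 2 tissue against 4 culture profiles. The counts higher in tissue became 18 for immediate early, 11 of 19 tested for residency and 10 of 18 tested for effector genes. The counts lower became 11 for hypoxia, 6 for glycolysis and 7 for sterol genes. The calls over all genes became 1236 higher and 932 lower (8.89% and 6.70%).

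**Figure D3:**
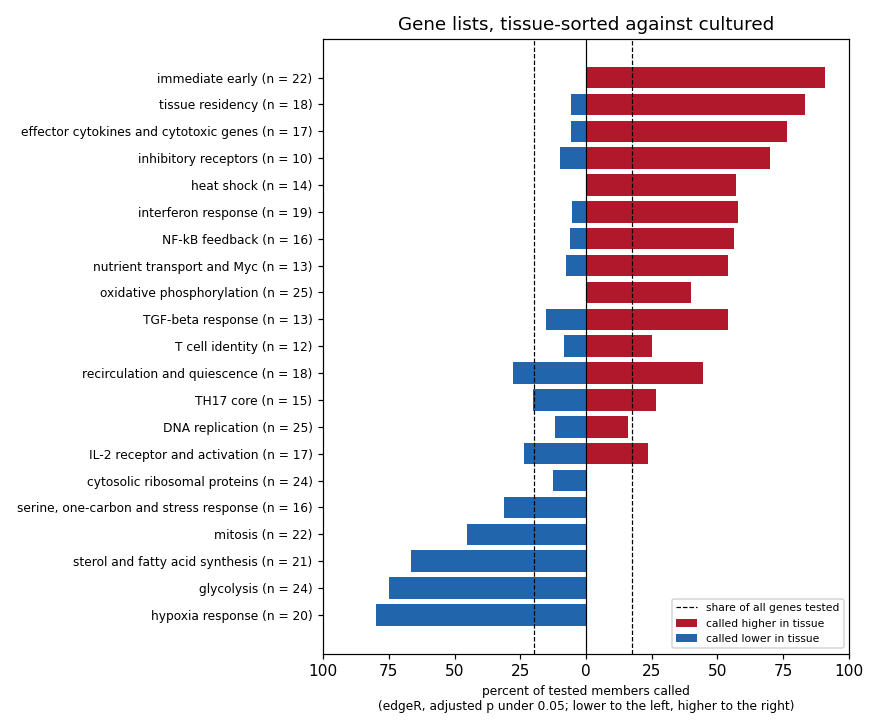
Percent of each list's tested members called lower in tissue (bars to the left) or higher (bars to the right) by edgeR; n is the number of members tested, and dashed lines mark the shares over all genes, 19.8% lower and 17.4% higher. Of the lists plotted, which leave out the marker lists of other cells and the RNAs without a poly(A) tail, immediate early and residency genes extend farthest to the right, hypoxia and glycolysis genes farthest to the left.

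Tissue residency genes were higher in sorted cells than in culture, and the transcription factors that go with recirculation did not move together. Of 18 residency genes tested, 15 were called higher and 13 of these lay above all cultures, with a median log2 fold change of 3.61. The myeloid markers, given above, were also highest in tissue, and their part in this list was not tested. Cxcr6, a chemokine receptor of tissue-resident T cells, had 1105 and 905 CPM from CNS and 2685 and 2773 CPM from ileum, but 5.55 to 285 CPM in culture (median 79.0). Its levels were higher in TH17(β) (147 to 285 CPM) than in TH17(23) cultures (5.55 to 10.9 CPM), and the tissue libraries stood above both (log2 fold change 4.26 ± 1.02 (adjusted p = 0.0057)). Rgs2, a relative of Rgs1, had 775 and 773 CPM from CNS and 1280.3 and 1319.7 CPM from ileum, but 14.3 to 111 CPM in culture (median 51.5), with a log2 fold change of 4.40 ± 0.55 (adjusted p = 5.07e-05). Bhlhe40, a transcription factor that TH17 cells need for inflammatory cytokines, had 2081 and 2298 CPM from CNS and 2988 and 2798 CPM from ileum, but 629.5 to 1601 CPM in culture (median 962), and rose by 1.51 ± 0.30 (adjusted p = 0.0016). Itgae, the CD103 integrin chain that binds epithelium, had 27.9 and 20.4 CPM from CNS and 51.2 and 52.8 CPM from ileum, but 2.93 to 6.78 CPM in culture (median 3.96), above the cultures in CNS as well as in ileum. Itgb7, the partner chain of gut-homing integrins, had 952 and 788 CPM from CNS and 477 and 516 CPM from ileum, with 266 to 908 CPM in culture (median 469.8), and Itgb1 did not pass either. Runx3 was the 1 member called lower, at -0.78 ± 0.28 (adjusted p = 0.043). That call was lost without either CNS library, the second ileum library or any 1 of the TH17(23) libraries (adjusted p 0.060 to 0.10). Itgae, Itgb1, Runx3 and the genes named next after the first 5 of a list were picked after their values were seen.

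Among 18 recirculation and quiescence genes, 8 were called higher and 5 lower, with a median of 0.56. Against the TH17(23) cultures 11 were higher and 2 lower (median 1.86), whereas against the TH17(β) cultures 6 were higher and 8 lower (median -0.04). Ccr7, which steers T cells into lymph nodes, had 77.9 and 88.4 CPM from CNS and 265 and 251 CPM from ileum, but 325 to 1337 CPM in culture (median 744). It was lower in every tissue library, with a log2 fold change of -1.98 ± 0.52 (adjusted p = 0.0094). Satb1, Lef1 and Bach2, factors of naive or less differentiated T cells, were also called lower. Klf2, the factor that switches on S1pr1, went the other way, with 252 and 255 CPM from CNS and 139 and 171 CPM from ileum, but 5.49 to 45.9 CPM in culture (median 13.3) and a log2 fold change of 3.56 ± 0.49 (adjusted p = 1.14e-04). S1pr1 itself had 173 and 163 CPM from CNS and 76.3 and 89.1 CPM from ileum, with 104 to 334 CPM in culture (median 234), overlapped and did not pass (-0.72 ± 0.31 (adjusted p = 0.088)). Btg2, an antiproliferative gene, was higher without overlap (1.92 ± 0.40 (adjusted p = 0.0023)). For Btg1, its paralogue, the log2 fold change was 1.92 ± 0.61 (adjusted p = 0.026), and the adjusted p became 0.076 without the first and 0.086 without the second ileum library. Without either ileum library 5 members of the list were called higher.

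Immediate early genes, which T cells switch on within minutes of a signal without new protein, were nearly all higher in tissue. All 22 were tested, 20 were called higher in tissue, none lower, and 18 lay above every culture. The median log2 fold change was 2.83, and 21 members were called against the TH17(β) and 19 against the TH17(23) cultures alone. Fos, a subunit of the AP-1 transcription factor, had 2435 and 2508 CPM from CNS and 1261 and 1233 CPM from ileum, 25.8, 24.0, 31.6 and 39.6 CPM in TH17(β) and 7.09, 2.75, 6.32 and 3.63 CPM in TH17(23) cultures. The CNS libraries were the highest, no culture passed 39.6 CPM, and the log2 fold change was 6.88 ± 0.71 (adjusted p = 1.02e-05). Junb, an AP-1 partner, had 3591 and 4034 CPM from CNS and 5910 and 6143 CPM from ileum, but 395 to 1636 CPM in culture (median 977), and its fold change was 2.51 ± 0.44 (adjusted p = 7.54e-04). Nr4a1, the nuclear receptor Nur77 that marks recent antigen receptor signals, had 839 and 823 CPM from CNS and 2148 and 2029.9 CPM from ileum, but 129 to 542 CPM in culture (median 164). Here the Ad-c-Rel libraries were the highest cultures, the ileum stood above CNS, and the log2 fold change was 2.76 ± 0.49 (adjusted p = 7.74e-04). Klf6, a zinc finger factor, had 1042 and 1015 CPM from CNS and 1714 and 1565 CPM from ileum, but 108 to 483 CPM in culture (median 306), with 2.39 ± 0.39 (adjusted p = 4.32e-04). Dusp1, the phosphatase that switches off p38 and JNK kinases, had 1761 and 1633 CPM from CNS and 1375 and 1553 CPM from ileum, but 13.6 to 67.2 CPM in culture (median 29.0), with 5.61 ± 0.46 (adjusted p = 1.46e-06). Those that did not pass were Nr4a3, with 2.19 ± 0.84 (adjusted p = 0.056), and Fosl2, at 0.02. Ier3, among the 20, had 367 and 357 CPM from CNS and 26.8 and 29.1 CPM from ileum, with 32.7 to 148 CPM in culture (median 36.1). It was thus above every culture in CNS and below every culture in ileum. It lost its call in 8 of the 12 fits that left out 1 library: either CNS library, any 1 TH17(β) library, or the first of either TH17(23) group (adjusted p 0.062 to 0.15).

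**Figure D4:**
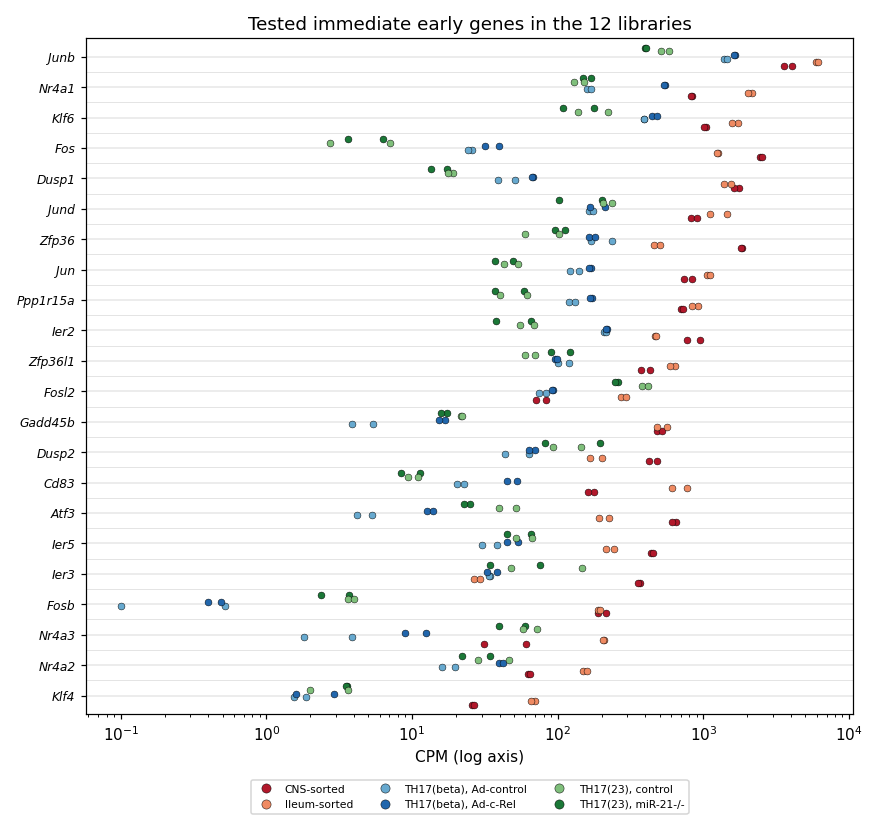
CPM on a log axis for the 22 immediate early genes in each of the 12 libraries, 1 point per library, coloured by group and ordered by mean level. In 18 of the 22 rows the 4 tissue points lie to the right of all 8 culture points; Fosl2, Nr4a3, Ier3 and Dusp2 overlap.

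Macrophages and microglia also express AP-1, Nr4a and Zfp36 genes. The summed level of the 22 immediate early genes was 17884 and 18628 CPM for CNS, 20123 and 19949.8 CPM for ileum and 1727 to 4124 CPM for culture, beside 40249 and 44152 CPM of myeloid markers for CNS and 5616 and 5979 CPM for ileum. The part of myeloid cells was not tested. The cAMP response element (CRE, letters TGACGTCA, the same on both strands) binds CREB, which drives several immediate early genes. In windows of 250 bases before to 50 after the RefSeq start, it stood in 1.88% of 27025 genes and 3.27% of the 10029 also tested. Among list members with a window it stood in 2 of 20, or 10.0%. Dusp1 was the member of highest level among them, and its window is shown with the element in capitals (RefSeq, GRCm38.p6, chr17:26508423-26508722, minus strand).
Dusp1: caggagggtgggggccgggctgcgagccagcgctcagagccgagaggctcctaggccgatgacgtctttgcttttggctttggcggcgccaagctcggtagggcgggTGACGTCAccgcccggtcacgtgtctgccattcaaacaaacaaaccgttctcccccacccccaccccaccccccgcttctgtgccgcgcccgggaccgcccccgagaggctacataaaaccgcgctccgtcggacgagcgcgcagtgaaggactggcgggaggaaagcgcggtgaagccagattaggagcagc

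NF-κB feedback genes, whose products limit that pathway, were called higher in 9 and lower in 1 (Cyld, a deubiquitinase, -0.87 ± 0.22 (adjusted p = 0.0085)) of 16 members, with a median of 1.28. For CNS alone 4 were higher and 2 lower, and for ileum alone 12 and 1. Myeloid cells express these genes too, and their part was not tested. Tnfaip3, the deubiquitinase A20, had 2048 and 1634 CPM from CNS and 3967 and 2988 CPM from ileum, but 183 to 358 CPM in culture (median 252). Nfkbia, the inhibitor IκBα, had 2496 and 2794 CPM from CNS and 1421 and 1481 CPM from ileum, but 305 to 769 CPM in culture (median 393). Neither overlapped with the cultures, and the log2 fold changes were 3.52 ± 0.31 (adjusted p = 2.63e-06) and 2.28 ± 0.30 (adjusted p = 8.81e-05). Nfkbiz, a nuclear IκB protein that TH17 cells use, was higher by 3.23 ± 0.36 (adjusted p = 1.80e-05). Peli1, the ubiquitin ligase in the title of the study, had 278 and 192 CPM from CNS and 746 and 838 CPM from ileum, with 162 to 686 CPM in culture (median 394). The cultures spanned the CNS values, and the ileum was above all of them. It did not pass (0.56 ± 0.52 (adjusted p = 0.42)), and the log2 fold change was -0.80 for CNS alone.

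Glycolysis genes were lower in sorted cells. Of 24 members, all tested, 18 were called lower, the same number lay below every culture, and none was called higher. The median log2 fold change was -1.99. The list summed to 11179 and 11162 CPM for CNS and 7107 and 7124 CPM for ileum, and to 41161 to 43166 CPM in the TH17(β) and 31707 to 39172 CPM in the TH17(23) cultures. In the order of the pathway, the transporter Slc2a1 (GLUT1) had 155 and 155 CPM from CNS and 128 and 59.6 CPM from ileum, but 204 to 546 CPM in culture (median 294), with a log2 fold change of -1.25 ± 0.34 (adjusted p = 0.012). Hk2, the hexokinase that traps glucose in the cell, was the exception among the first steps. It had 98.5 and 90.3 CPM from CNS and 92.4 and 83.1 CPM from ileum, between 49.8 to 78.2 CPM in the TH17(β) and 193 to 407 CPM in the TH17(23) cultures, and its pooled log2 fold change of -0.82 ± 0.60 (adjusted p = 0.3) turned to 0.82 against the TH17(β) cultures alone. Gapdh, which yields NADH midway through the pathway, had 2201 and 2256 CPM from CNS and 1825 and 2205 CPM from ileum, but 5599.7 to 8438 CPM in culture (median 7196), with -1.57 ± 0.28 (adjusted p = 7.71e-04). Pgk1, the first step that makes ATP, had 409 and 456 CPM from CNS and 189.7 and 164 CPM from ileum, but 2423 to 5286 CPM in culture (median 3583). It was lower in both tissues and lowest in ileum (-3.48 ± 0.44 (adjusted p = 6.26e-05)). Pkm, the pyruvate kinase of the last step, had 2265 and 2334 CPM from CNS and 1374 and 1223 CPM from ileum, but 5143 to 10344 CPM in culture (median 8236), with -1.99 ± 0.34 (adjusted p = 6.23e-04). Ldha, which turns pyruvate into lactate, had 1721 and 1475 CPM from CNS and 1131 and 1081 CPM from ileum, but 2347 to 4332 CPM in culture (median 3602), with -1.20 ± 0.26 (adjusted p = 0.0034). Ldhb, the isoform that favours the reverse reaction, did not pass (1.06 ± 0.64 (adjusted p = 0.21)), and its log2 fold change was -2.11 for the ileum alone. When the libraries of each group were summed to 1, Pkm, Gapdh, Aldoa and Ldha kept their direction with adjusted p from 0.085 to 0.18, while Pgk1 and Slc2a3 stayed below 0.05.

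**Figure D5:**
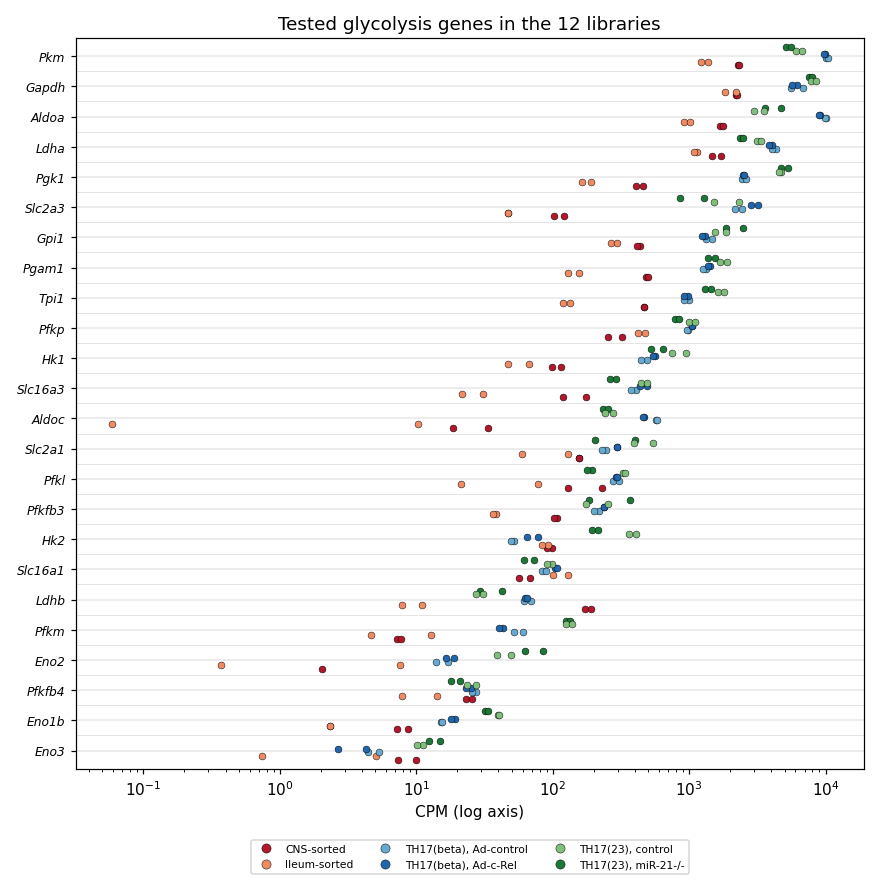
CPM on a log axis for the 24 glycolysis genes in each of the 12 libraries, 1 point per library, coloured by group and ordered by mean level. In 18 rows all 4 tissue points lie to the left of the 8 culture points, for example Pgk1 with 164 to 456 CPM in tissue.

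Hypoxia response genes followed the same direction, with 16 of 20 called lower, 15 below every culture and a median of -2.49. Hif1a, the oxygen-regulated transcription factor itself, had 949.9 and 822 CPM from CNS and 1642 and 1302 CPM from ileum, with 840 to 2637 CPM in culture (median 1849), overlapped and did not pass (-0.40 ± 0.36 (adjusted p = 0.39)). Its known targets separated: Ero1l, an oxidase of protein folding, had 164 and 129 CPM from CNS and 135 and 96.3 CPM from ileum, but 1299.7 to 3427 CPM in culture (median 2170.3), and Ndrg1, a stress-induced growth regulator, had 43.7 and 36.1 CPM from CNS and 159.7 and 136 CPM from ileum, but 558 to 1164 CPM in culture (median 821). The log2 fold changes were -3.98 ± 0.37 (adjusted p = 4.13e-06) and -2.96 ± 0.49 (adjusted p = 4.39e-04). Bnip3 and Bnip3l, receptors for the removal of mitochondria, changed by -3.76 ± 0.73 (adjusted p = 0.0014) and -1.56 ± 0.21 (adjusted p = 1.11e-04). Bnip3 had 74.5, 84.4, 6.83 and 6.75 CPM in the CNS and ileum libraries in turn, and so differed between the tissues by 3.34 ± 0.20 (adjusted p = 1.31e-05) as CNS minus ileum.

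HIF-1 binds the core ACGTG. That core, on either strand, stood in the start windows of 11 of 22 glycolysis genes with a window (50%) and 12 of 18 hypoxia genes (66.7%), against 19.7% of all 27025 genes and 26.1% of the 10029 that were also tested. Letters alone do not make a site. Gapdh and Ldha are the members of highest level that hold it, with 1 and 5 matches. The letters CACGTG count once on each strand, so the Ldha matches fall in fewer places than their number. All are shown in capitals (RefSeq, GRCm38.p6; Gapdh chr6:125165724-125166023, minus strand; Ldha, the first of 2 windows, chr7:46845554-46845853, plus strand).
Gapdh: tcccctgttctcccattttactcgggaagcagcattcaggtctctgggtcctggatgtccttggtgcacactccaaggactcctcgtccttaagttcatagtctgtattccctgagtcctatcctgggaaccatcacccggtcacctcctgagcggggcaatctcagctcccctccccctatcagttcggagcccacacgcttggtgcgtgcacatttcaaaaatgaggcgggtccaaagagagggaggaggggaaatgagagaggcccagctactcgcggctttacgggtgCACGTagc
Ldha: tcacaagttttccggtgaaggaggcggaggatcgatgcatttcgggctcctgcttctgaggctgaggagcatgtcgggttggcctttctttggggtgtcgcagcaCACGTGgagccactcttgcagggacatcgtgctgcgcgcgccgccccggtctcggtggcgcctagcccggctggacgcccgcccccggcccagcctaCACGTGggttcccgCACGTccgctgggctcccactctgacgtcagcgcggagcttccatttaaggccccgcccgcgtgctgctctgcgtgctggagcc

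Sterol and fatty acid synthesis genes were called lower in 14 of 21 members and higher in none, with a median of -1.48. Scd2, a desaturase that makes monounsaturated fatty acids, had 33.3 and 28.3 CPM from CNS and 16.1 and 12.5 CPM from ileum, but 679 to 1982 CPM in culture (median 1236), with a log2 fold change of -5.71 ± 0.54 (adjusted p = 5.28e-06). Hmgcs1, which starts the mevalonate branch, had 33.7 and 15.0 CPM from CNS and 57.3 and 69.9 CPM from ileum, but 214 to 368 CPM in culture (median 322). Every tissue library was below every culture (-2.59 ± 0.41 (adjusted p = 3.09e-04)). Acly, which supplies cytosolic acetyl-CoA, changed by -1.02 ± 0.25 (adjusted p = 0.0064). Oxidative phosphorylation genes were called higher in 10 of 25 members and lower in none against all cultures, with a median of 0.60. Against the TH17(β) cultures 10 were higher and 5 lower, against the TH17(23) cultures 21 higher, and without both second tissue libraries 6 higher.

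Among nutrient carriers, Slc3a2 and Slc1a5 were higher in tissue, unlike the glucose transporters above. Slc3a2, the chain shared by several amino acid transporters (CD98), had 642 and 887 CPM from CNS and 2194 and 2212 CPM from ileum, but 123 to 241 CPM in culture (median 171). Slc1a5, a glutamine carrier, had 347 and 314 CPM from CNS and 497 and 584 CPM from ileum, but 89.8 to 255 CPM in culture (median 187). Both lay above every culture, by 3.30 ± 0.37 (adjusted p = 1.87e-05) and 1.45 ± 0.29 (adjusted p = 0.0018). Of the 13 nutrient transport and Myc genes, 7 were called higher and 1 lower, against 11 and 0 for the TH17(β) and 5 and 2 for the TH17(23) cultures. Without the second ileum library 4 were called higher, and the lower call was lost without either CNS library or 1 of 3 TH17(23) libraries (the first miR-21-/- and both controls). B and plasma cell markers were also highest in ileum, and their part in the carrier levels was not tested. Odc1, a Myc target that makes polyamines, had 515 and 431 CPM from CNS and 3114 and 3273 CPM from ileum, with 306 to 1036 CPM in culture (median 607), and was thus high in ileum alone. Its log2 fold change of 1.68 ± 0.55 (adjusted p = 0.03) had an adjusted p of 0.13 without the first and 0.12 without the second ileum library, and was -0.51 for CNS alone.

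Genes of mitosis were called lower in tissue for part of the list, and the number called depended on the culture. Of 22 members 10 were called lower, none higher, and 8 lay below every culture. Against the TH17(23) cultures 15 of 22 were called lower, where 22.8% of all genes were. Against the TH17(β) cultures 3 of 22 were called lower, a share no larger than the 16.9% of all genes. Top2a, the topoisomerase that untangles sister chromosomes, had 75.7 and 54.5 CPM from CNS and 113 and 84.6 CPM from ileum, 240.4, 269, 132 and 137 CPM in TH17(β) and 543, 745, 694 and 968 CPM in TH17(23) cultures. All 4 tissue libraries were below the lowest culture, which was Ad-c-Rel (-2.34 ± 0.62 (adjusted p = 0.0099)). Kif11, a spindle motor, had 30.4 and 5.77 CPM from CNS and 46.4 and 24.6 CPM from ileum, but 47.5 to 326 CPM in culture (median 102). Tpx2, a spindle assembly factor, had 23.9 and 27.5 CPM from CNS and 16.2 and 15.1 CPM from ileum, but 41.3 to 183 CPM in culture (median 98.9). Their log2 fold changes were -2.14 ± 0.66 (adjusted p = 0.021) and -2.19 ± 0.46 (adjusted p = 0.0024). Prc1, which bundles microtubules between separating chromosomes, had 34.9, 35.3, 15.6 and 0.763 CPM in the CNS and ileum libraries in turn. The 2 ileum libraries thus differed from each other by more than the fitted difference between tissue and culture. Its log2 fold change of -2.19 ± 0.67 (adjusted p = 0.021) had an adjusted p of 0.056 without the first ileum library. With each group summed to 1 library, no mitosis gene was called. Of 25 DNA replication genes, 4 were called higher and 3 lower, with a median of 0.27. That is 16% and 12%, no more than the 17.4% and 19.8% over all genes tested. Against the TH17(β) cultures 10 were higher and 2 lower (median 0.79), where 22.1% and 16.9% of all genes were called. Against the TH17(23) cultures 4 were higher and 3 lower (median 0.04), where the shares over all genes were 23.3% and 22.8%. Pcna, the clamp of the replication fork, had 269 and 221 CPM from CNS and 380.2 and 331 CPM from ileum, with 101 to 265 CPM in culture (median 135), and its log2 fold change of 1.13 ± 0.32 (adjusted p = 0.013) had an adjusted p of 0.055 without the first ileum library.

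Genes of mitosis share promoter elements, the cell cycle homology region (CHR, TTTGAA) and the CCAAT box, bound by MuvB complexes and NF-Y. On either strand, TTTGAA stood in 12 of 17 mitosis genes with a window (70.6%) against 18.1% of all genes, and CCAAT in 14 of 17 (82.4%) against 37.9%. Among the 10029 genes with a window that were also tested, the shares were 11.9% and 39.2%. The windows of Top2a and Mki67, the members of highest level, hold 2 and 2 matches to TTTGAA and 6 and 3 to CCAAT, all in capitals (RefSeq, GRCm38.p6; Top2a chr11:99024140-99024439, minus strand; Mki67 chr7:135716330-135716629, minus strand).
Top2a: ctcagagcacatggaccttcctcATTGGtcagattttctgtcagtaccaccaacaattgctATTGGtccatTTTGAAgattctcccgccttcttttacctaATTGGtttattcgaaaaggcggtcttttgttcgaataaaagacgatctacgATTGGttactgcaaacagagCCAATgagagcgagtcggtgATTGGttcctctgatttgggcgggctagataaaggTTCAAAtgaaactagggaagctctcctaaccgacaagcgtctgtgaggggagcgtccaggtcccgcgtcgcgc
Mki67: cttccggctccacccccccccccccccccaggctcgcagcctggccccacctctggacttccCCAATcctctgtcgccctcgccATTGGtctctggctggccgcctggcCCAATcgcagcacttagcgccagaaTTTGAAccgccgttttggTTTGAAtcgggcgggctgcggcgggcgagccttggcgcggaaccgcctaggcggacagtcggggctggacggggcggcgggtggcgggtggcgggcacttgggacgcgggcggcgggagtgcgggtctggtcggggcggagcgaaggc

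Core TH17 genes differed in direction between the tissues. Of 15 members, 4 were called higher (Rora, Il1r1, Il17a and Ccr6) and 3 lower (Il21 and Irf4 among them), with a median of 1.41. For CNS alone 1 was higher and 6 lower (median -1.36), and for ileum alone 7 were higher and 1 lower (median 2.33). The pooled shares were 26.7% higher and 20% lower, against 17.4% and 19.8% over all genes tested. By culture set, 3 were higher and 2 lower against TH17(β), where 22.1% and 16.9% of all genes were called. Against TH17(23) 6 were higher and 2 lower, where the shares over all genes were 23.3% and 22.8%. Only the 6 higher stood above the share of their set. Without either ileum library 2 were called higher. Il17a, the signature cytokine, had 79.9 and 79.2 CPM from CNS and 2256 and 2579 CPM from ileum, 148, 149.6, 270.5 and 272 CPM in TH17(β) and 459, 223, 107 and 19.5 CPM in TH17(23) cultures. Only the ileum libraries stood above the cultures, and the pooled log2 fold change of 2.87 ± 0.87 (adjusted p = 0.02) became -1.36 for CNS alone, with adjusted p of 0.071 and 0.076 without the first and the second ileum library. Il17f, its neighbour and relative, had 38.0 and 36.4 CPM from CNS and 5009 and 5758 CPM from ileum, with 74.2 to 6077 CPM in culture (median 2165), and did not pass (0.33 ± 1.24 (adjusted p = 0.86)). Between the tissues, Il17a differed by -5.13 ± 0.69 (adjusted p = 7.27e-04) and Il17f by -7.38 ± 0.59 (adjusted p = 5.21e-05) as CNS minus ileum, in a fit that called 14.5% of genes higher and 15.3% lower in CNS. Rora, a nuclear receptor of the lineage, had 343 and 333 CPM from CNS and 1837 and 1693 CPM from ileum, with 76.3 to 534 CPM in culture (median 246). Its log2 fold change of 2.21 ± 0.62 (adjusted p = 0.014) likewise rested on the ileum, with adjusted p of 0.065 and 0.054 without the first and the second ileum library. Il21, a cytokine that T cells make on strong stimulation, had 4.99 and 9.05 CPM from CNS and 40.7 and 38.3 CPM from ileum, but 345 to 1199 CPM in culture (median 579), which made it the core gene with the widest gap (-4.59 ± 0.72 (adjusted p = 3.09e-04)). Stat3, the transducer of IL-6 and IL-23, had 369.6 and 387 CPM from CNS and 1136 and 1023 CPM from ileum, with 633 to 1489 CPM in culture (median 1101), and did not pass (-0.33 ± 0.39 (adjusted p = 0.54)). Irf4, induced by T cell receptor signals, changed by -1.96 ± 0.71 (adjusted p = 0.046), a call lost without either CNS library, the second ileum library or any 1 of the TH17(23) libraries (adjusted p 0.057 to 0.10).

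Effector cytokines and cytotoxic genes were mostly higher in tissue: 13 of 17 were called higher and 1 lower, with a median of 3.96. Ifng, the TH1 cytokine that TH17 cells can acquire in inflamed tissue, had 183 and 179.9 CPM from CNS and 210 and 171 CPM from ileum, 2.79, 0.652, 3.30 and 2.86 CPM in TH17(β) and 4.51, 1.99, 1.32 and 1.01 CPM in TH17(23) cultures. The tissue libraries lay close together and far above the cultures (6.52 ± 0.44 (adjusted p = 3.00e-07)). Csf2, the myeloid growth factor GM-CSF, had 47.7 and 47.7 CPM from CNS and 5.60 and 8.69 CPM from ileum, with 1.50 to 11.2 CPM in culture (median 4.62). CNS was above all cultures and ileum was not, and the pooled log2 fold change of 2.37 ± 0.64 (adjusted p = 0.011) was 0.58 with an adjusted p of 0.53 for the ileum alone. Ccl4, a chemokine of activated T cells and macrophages, had 728 and 847 CPM from CNS and 103 and 124 CPM from ileum, but 3.48 to 75.8 CPM in culture (median 12.5) (4.17 ± 0.80 (adjusted p = 0.0013)). Its CNS libraries were the highest, as were those of the myeloid markers, whose part was not tested. Gzma and Gzmb, proteases of cytotoxic granules, were high in ileum, with 11.8, 5.93, 1148 and 1108 CPM for Gzma and 76.4, 111, 1011 and 1107 CPM for Gzmb in the CNS and ileum libraries in turn. Gzma was called higher (7.06 ± 1.16 (adjusted p = 4.40e-04)), whereas Gzmb overlapped with the TH17(23) cultures (139 to 309.8 CPM) and did not pass (2.65 ± 1.17 (adjusted p = 0.09)). The 1 gene called lower was Il24, an IL-10 family cytokine, with no count in any tissue library and 63.7 to 595 CPM in culture (median 249.7). Against a floor of 3 counts over the tissue libraries it was at least 8551-fold lower. Markers of CD8, NK and γδ T cells summed to 90.9 and 68.6 CPM for CNS, 19.1 and 10.0 CPM for ileum and 7.81 to 37.6 CPM for culture, and their part in the granule genes was not tested.

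Genes of IL-2 reception and activation were called at shares close to those of all genes. Of the 17 members, 4 were called higher and 4 lower, and the median was -0.01. That is 23.5% each way, against 17.4% higher and 19.8% lower over all genes tested. Without either ileum library 2 were called higher, for CNS alone 1, and with each group summed to 1 library none. Against the TH17(β) cultures 3 were higher and 7 lower, and against the TH17(23) cultures 5 and 5. Beside Il2ra, Tnfrsf9 (4-1BB), a costimulatory receptor, was lower without overlap, with 256 and 240.2 CPM from CNS and 254 and 228 CPM from ileum, but 712 to 2203 CPM in culture (median 1483) and -2.45 ± 0.34 (adjusted p = 1.11e-04). Tfrc, the transferrin receptor of growing cells, and Tnfrsf18 (GITR) completed the lower members. Il2rg, the chain shared by receptors for IL-2 and related cytokines, had 1419.9 and 1349 CPM from CNS and 1232 and 1346 CPM from ileum, between 2237 to 3134 CPM in the TH17(β) and 421 to 511 CPM in the TH17(23) cultures. Icos, a costimulatory receptor, had 563 and 519 CPM from CNS and 2034 and 2002 CPM from ileum, with 269 to 1143 CPM in culture (median 819), with the ileum above all cultures and CNS within their range (0.97 ± 0.48 (adjusted p = 0.13)). Ctla4, the inhibitory receptor that competes with CD28, had 429 and 360.1 CPM from CNS and 4692 and 4997 CPM from ileum, with 274 to 963 CPM in culture (median 587). Its log2 fold change of 2.36 ± 0.64 (adjusted p = 0.012) had adjusted p of 0.055 and 0.054 without the first and the second ileum library, and became -0.63 for CNS alone. Of 10 inhibitory receptors, 7 were called higher and 1 lower, with a median of 2.60. The lower call was lost without either CNS library. By culture set, 6 were higher and none lower against TH17(β), and 9 higher and 1 lower against TH17(23). Tigit had 117 and 107 CPM from CNS and 459 and 511 CPM from ileum, but 15.1 to 95.8 CPM in culture (median 37.3), above all cultures in both tissues (2.84 ± 0.59 (adjusted p = 0.0022)). Havcr2 (TIM-3), which myeloid cells express too, had 162 and 178 CPM from CNS and 157 and 173 CPM from ileum, but 0.100 to 1.64 CPM in culture (median 0.669), at even levels in CNS and ileum (8.10 ± 0.61 (adjusted p = 7.14e-07)).

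Interferon response genes were called higher in 11 of 19 members and lower in 1 (Stat2, -1.05 ± 0.33 (adjusted p = 0.026), adjusted p 0.065 without the first ileum library), with a median of 2.67. With the CNS libraries alone against the cultures 16 of 20 tested were called higher, and with the ileum libraries alone 9 of 19 higher and 2 lower. By culture set, 10 of 18 tested were higher and none lower against TH17(β), and 15 of 20 higher and 1 lower against TH17(23). The list summed to 3313 and 3266 CPM in CNS, 1236 and 1145 CPM in ileum and 969 to 2031 CPM in the cultures. Myeloid markers had 40249 and 44152 CPM for CNS, 5616 and 5979 CPM for ileum and 151 to 314 CPM for culture. Such cells also express interferon response genes, and their part was not tested. Irgm1, an immunity-related GTPase, had 292 and 267 CPM from CNS and 72.5 and 58.3 CPM from ileum, with 24.4 to 105 CPM in culture (median 63.2). Its log2 fold change of 1.57 ± 0.49 (adjusted p = 0.023) had adjusted p of 0.095 and 0.078 without the first and the second CNS library.

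Ribosomal protein and histone genes differed between the culture sets. Cytosolic ribosomal protein genes summed to 13603 to 15472 CPM in tissue and 13682 to 15165 CPM in TH17(β), but 39833 to 53529 CPM in the TH17(23) cultures. Accordingly 16 of 24 were called higher and 1 lower against TH17(β), and none higher and 22 lower against TH17(23) cultures. Over all cultures 3 were lower, or 12.5%, against 19.8% over all genes tested. That count was 0 without either CNS library, 1 without either ileum library or any 1 TH17(23) library, and 1 with a replicate block. Replication-dependent histone genes, whose mRNAs lack a poly(A) tail, were called higher in 7 of 12 tested members and lower in none. Against TH17(β) cultures 4 of 11 tested were called higher, and against TH17(23) cultures 6 of 8. Their 20 listed members summed to 76.7 to 277 CPM in tissue, 30.7 to 36.9 CPM in TH17(β) and 5.95 to 8.85 CPM in TH17(23) cultures. For neither class was the part of the kit tested. Reads listed as aligned to several places were 0% in the TH17(23) libraries and 2.25% to 3.52% in the others. The part of that difference was not tested either.

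The largest single differences, given as a description with no test, fell into 2 sets. At the higher end, the 12 protein-coding genes of at least 20 CPM on average outside the lists of other cells were Ccl12, Fcgr1, Cd300c2, Cxcl9, C5ar1, Lyz1, Ms4a7, Clec7a, Clec4n, Pla2g7, Cxcl1 and Il1b. Most are known from macrophages, microglia or neutrophils: Fcgr1 is an IgG receptor, C5ar1 the receptor for complement C5a, and Clec7a the fungal sensor dectin-1. Cxcl9, a chemokine induced by IFN-γ, had 145 and 156 CPM from CNS and 19.9 and 13.7 CPM from ileum and no count in any culture, at least 6053-fold higher against a floor of 3 counts over the cultures. Il1b, the inflammatory cytokine IL-1β, had 302 and 296 CPM from CNS and 305 and 247 CPM from ileum, but 0.0275 to 0.284 CPM in culture (median 0.0612). At the lower end were Il24, Gipr, Lum, Mcf2l, Reep1, Mboat2, Smtnl2, Dysf, Myh11, Lama5, Dnm1 and Dntt, the first 8 without a count in any tissue library. Gipr, the receptor of an incretin hormone, had 98.6 to 215 CPM in culture (median 143), so that it was at least 3487-fold lower in tissue. Dntt, the DNA polymerase that adds bases at antigen receptor joints, had 0.119 and 0 CPM from CNS and 0 and 0.293 CPM from ileum, but 85.3 to 137 CPM in culture (median 114). Lum, a matrix proteoglycan, and Myh11, a smooth muscle myosin, are not T cell markers. Lum had 38.5 to 84.2 CPM in TH17(β) and 107 to 262 CPM in TH17(23) cultures, and Myh11 0.713 to 2.25 CPM and 28.4 to 165 CPM. Myh11 had 1 count over the tissue libraries, a culture-to-tissue ratio of 4449 (798 to 175751) with its 95% counting interval.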

How the data were processed

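The RNA-seq values were raw counts per gene, 1 deposited file for each of 12 libraries. The submitters' processing notes name Trim Galore 0.4.4, TopHat2 2.1.0 and HTSeq 0.11.0 and the build mm10, without saying which library each served; annotation and strand setting of the counting step are not given in these sources. Rows that name no gene (14.7% to 26.1% of the reads counted) were removed; reads aligned to several places were 0 in the miR-21 libraries and 2.25% to 3.52% elsewhere. Of 24862 symbols, 24768 matched RefSeq (GRCm38.p6), 550 of them through a synonym.

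Counts were filtered with filterByExpr, scaled by TMM and fitted in edgeR 4.0.16 (limma 3.58.1, R 4.3.3) with 1 mean for tissue and 1 for culture; each standard error was derived from the F statistic, so it restates the test. The tests were also run on simulated counts of independent libraries. Those had no groups, so they cannot show how the p-values behave where libraries share a group. CPM uses the total of gene counts. CNS and ileum were compared in a fit of 6 group means. Members and the 33 gene lists were chosen with earlier results of these data known. The text names the 6 markers, the members of highest mean CPM in each list (up to 5, or 3 for other cells) and the 12 largest differences each way; from the smaller lists fewer are given. Alternatives were DESeq2 1.42.0, other scalings, filters and culture or tissue subsets, summed groups, a replicate block and leaving out each library. Some results are not reported here.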

Additional observations from a re-analysis of the deposited data

Results flagged for a closer look

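Genes were flagged because their CNS and ileum libraries lay on opposite sides of every culture. Their CNS minus ileum differences were thus selected, and the adjusted p-values given here carry no weight as a test. Gbp2, an interferon-induced GTPase, lay above every culture in both CNS libraries and below every culture in both ileum libraries, with 539 and 498 CPM from CNS and 55.9 and 44.7 CPM from ileum, with 150.4 to 335 CPM in culture (median 283). As CNS minus ileum, the log2 difference was 3.15 ± 0.17 (SE), with an adjusted p of 7.79e-06 in edgeR's fit of 6 group means. Sdc1, which encodes syndecan-1, found on plasma cells and on some T cells, did the opposite, with 10.4 and 15.0 CPM from CNS and 266 and 243 CPM from ileum, with 21.9 to 88.8 CPM in culture (median 58.7). Its CNS minus ileum log2 difference was -4.54 ± 0.23, with an adjusted p of 6.67e-06. Jchain, a plasma cell gene, had 0.892, 1.04, 3326 and 3270.3 CPM in the CNS and ileum libraries in turn, and its part in the Sdc1 values was not tested.

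Ier3, Itgb1 and Ldhb also lay above every culture in both CNS libraries and below every culture in both ileum libraries. Itgb1, the β1 integrin chain, had 820 and 696 CPM from CNS and 49.8 and 92.4 CPM from ileum, with 162 to 237 CPM in culture (median 208), and Ldhb, the lactate dehydrogenase B chain, had 174 and 189.8 CPM from CNS and 7.87 and 11.1 CPM from ileum, with 27.4 to 69.3 CPM in culture (median 52.0). In the same edgeR fit the CNS minus ileum log2 differences were 3.49 ± 0.57 (adjusted p = 0.0021) for Ier3, 3.22 ± 0.24 (adjusted p = 3.42e-05) for Itgb1 and 4.06 ± 0.21 (adjusted p = 7.10e-06) for Ldhb. The same pattern was looked for in the genes that the text names, and its cause was not tested.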

How the results depend on the processing

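The 2227 higher and 2535 lower calls became 1988 to 2250 and 2058 to 2590 when 1 library was left out, 3580 and 4321 with 6 group means, 1236 and 932 with each group summed to 1 library, and 1329 and 1085 against the unmodified cultures. Of 4762 called genes, 4761 were also called in the same direction by DESeq2 (2517 higher, 3481 lower) and none was called in the opposite direction by it.

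Genes without overlap (1331 higher, 2417 lower) were 766 and 1303 when a margin of 1.5-fold was asked, 2449 and 4298 against the TH17(23) cultures, 2117 and 4073 against the TH17(β) cultures, 2160 and 4356 for ileum alone, and 2479 higher for CNS alone. They ranged from 1341 to 1560 higher and from 2429 to 3019 lower with 1 library left out. On the same genes, fewer libraries can only keep or raise such a count, and a margin can only keep or lower it. The direction of these changes was therefore fixed in advance, and a larger count for a subset does not show a stronger difference. Large protein-coding differences (598 higher, 664 lower) were 924 and 997 against the TH17(23) cultures; the lower ones numbered 406 against the TH17(β) cultures, 437 with summed groups, 434 against unmodified cultures and 437 at a mean of at least 20 CPM. With 1 library left out they ranged from 586 to 623 and from 590 to 776. Without both second tissue libraries, a setting chosen after seeing the data, 2128 genes were called higher and 2091 lower.

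The replicate numbers did not pair the samples: deviations of same-numbered samples correlated between -0.045 and 0.125, apart from 0.597 between the miR-21-/- and control cultures. With a replicate block, 2076 genes were called higher and 2416 lower.

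Of the 104 genes named in the text that were called, 91 kept their call whichever library was left out. The 104 include the genes named as the largest differences, which these data chose for their size and which all kept their call. Leaving out 1 library also kept the other library of its group in the fit. The count therefore does not measure how far the calls depend on the groups sampled. Log2 fold changes of named genes that changed sign were, for CNS alone, Ctla4 -0.63, Fosl2 -1.43, Gzmb -0.20, Icos -0.52, Il17a -1.36, Il17f -6.15, Odc1 -0.51, Peli1 -0.80 and Sdc1 -2.16. For ileum alone they were Gbp2 -2.12, Ier3 -0.76, Itgb1 -1.28, Ldhb -2.11 and Stat3 0.27. Against the TH17(23) cultures they were Cd4 0.048, Fosl2 -0.60, Hif1a 0.22, Il2rg 1.72 and Stat3 0.14, and against the TH17(β) cultures Hk2 0.82, Il17f -0.43 and Mki67 0.82. With 6 group means they were Gbp2 -0.48, Il17f -1.47 and Il2rg 0.41, and against unmodified cultures Fosl2 -0.13 and Il2rg 0.13. Fosl2, at 0.02, was also -0.020 with DESeq2, -0.19 by library size alone, -0.0065 without a filter, -0.73 with T cell scaling and -0.044 without both second tissue libraries, where Cd4 was 0.0025. With 1 library left out, Fosl2 ranged from -0.34 to 0.29, Gbp2 from -0.31 to 0.53, Il17f from -0.36 to 0.73 and Il2rg from -0.25 to 0.14.

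Second tissue libraries held the fewest genes with a read, so low values there are the least precise. The causes of these changes were not tested.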

Other observations

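TGF-β response genes were called higher in 7 and lower in 2 (Ltbp3 and Smad3) of 13 members, with a median log2 fold change of 1.80, by edgeR's quasi-likelihood test. Against the TH17(β) cultures 9 were higher and none lower, and against the TH17(23) cultures 7 and 5. Without both second tissue libraries none was called lower. Tgfbr2, the ligand-binding receptor chain, had 374 and 322 CPM from CNS and 317 and 257 CPM from ileum, but 48.3 to 99.4 CPM in culture (median 79.9), and Skil, which represses SMAD proteins, had 371 and 306 CPM from CNS and 510.3 and 537 CPM from ileum, but 57.4 to 219.6 CPM in culture (median 116). Every tissue library lay above every culture for both, although the TH17(β) cultures contained TGF-β1, and the log2 fold changes were 2.22 ± 0.19 (adjusted p = 1.96e-06) and 2.00 ± 0.32 (adjusted p = 3.36e-04). Tgif1, another repressor of SMAD proteins, was higher by 3.25 ± 0.36 (adjusted p = 1.92e-05). Tgfbi, a matrix protein that macrophages also secrete, had 649.6 and 513 CPM from CNS and 72.7 and 86.2 CPM from ileum, but 0.0275 to 2.16 CPM in culture (median 0.759), with CNS above ileum as for the myeloid markers, whose part was not tested. Smad3, a transducer of the pathway, went the other way (-0.96 ± 0.27 (adjusted p = 0.014)); without both second tissue libraries its log2 fold change was -0.73, with an adjusted p of 0.10.

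Heat shock genes were called higher in 8 of 14 members and lower in none, with a median of 1.05. For CNS alone 4 were higher and for ileum alone 9. By culture set, 9 were higher and none lower against TH17(β), and 7 higher and 2 lower against TH17(23). Hspa5, the endoplasmic reticulum chaperone BiP, had 2024 and 2095 CPM from CNS and 5833 and 5855 CPM from ileum, but 515 to 876 CPM in culture (median 591), above every culture and highest in ileum (2.82 ± 0.35 (adjusted p = 5.38e-05)). B and plasma cell markers, whose cells hold much of this chaperone, summed to 4531 and 4381 CPM for ileum and 355 and 359 CPM for CNS, and their part was not tested. Dnaja1, a co-chaperone, was higher by 1.49 ± 0.25 (adjusted p = 5.37e-04). Hspa8, the constitutive cytosolic chaperone, had 3286 and 3144 CPM from CNS and 3653 and 3343 CPM from ileum, with 1751 to 3362 CPM in culture (median 2313), overlapped with the TH17(23) cultures and did not pass (0.63 ± 0.29 (adjusted p = 0.1)). Hspa1a, the inducible chaperone, had 13.5, 13.0, 263 and 219 CPM in the CNS and ileum libraries in turn against 1.18 to 19.4 CPM in culture (median 4.83); its log2 fold change of 4.30 ± 0.91 (adjusted p = 0.0025) was 0.75, with an adjusted p of 0.53, for CNS alone. Of 16 genes of serine and one-carbon metabolism and the integrated stress response, 5 were called lower and none higher. The lower calls were 31.2% of the list, against 19.8% over all genes tested. Against the TH17(β) cultures 4 were higher and 2 lower, where 22.1% and 16.9% of all genes were called. Against the TH17(23) cultures 0 were higher and 3 lower, where the shares over all genes were 23.3% and 22.8%. The counts for each culture set were thus near or below those shares. Against the unmodified cultures none was lower, and without the first ileum library 3 were lower. Mthfd1l, a mitochondrial folate enzyme, had 16.7, 34.7, 11.3 and 0.117 CPM in the CNS and ileum libraries in turn, with 1 ileum library near 0, and 93.9 to 284 CPM in culture (median 131) (-3.28 ± 0.88 (adjusted p = 0.01)). Atf4, the transcription factor of that stress response, had 205 and 265 CPM from CNS and 386 and 429 CPM from ileum, with 128 to 383 CPM in culture (median 192), and did not pass (0.72 ± 0.37 (adjusted p = 0.14)).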
